A study of Homo sapiens with 23 samples.

Results

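The genes described here are 9 of the MHC class I antigen presentation pathway: the class I heavy chains HLA-B, HLA-C and HLA-E, their light chain B2M, the peptide transporter subunits TAP1 and TAP2, the immunoproteasome subunits PSMB8 and PSMB9, and NLRC5, the transactivator of class I genes. They were chosen by name, each as the row of the expression table that carries its NCBI Gene ID, and all 9 were found among the 21658 genes of that table. Their values were compared between 4 parental ovarian cancer cell lines, and between parental and prexasertib-resistant cells of each line.

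Class I molecules display peptides from inside the cell to CD8 T cells and to receptors of natural killer cells, and most tumour cells carry them at some level. Proteasomes cut proteins into peptides, TAP1 and TAP2 form the pump that moves these peptides into the endoplasmic reticulum, and there a peptide, a heavy chain and B2M (beta-2 microglobulin) assemble into the complex that travels to the cell surface. Interferon gamma is the best known inducer of the pathway: it acts through induced transcription factors such as IRF1, raises NLRC5, and swaps the catalytic subunits of the standard proteasome for those of the immunoproteasome.

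RNA was sequenced from established lines labelled as ovarian cancer: Kuramochi, EFO-21, OVSAHO and OV-90, each as the parental line and as a line made resistant by long-term culture in rising concentrations of prexasertib, an inhibitor of the checkpoint kinase CHK1. There were 3 libraries in each of the 8 groups except parental OV-90, which had 2, so 23 in all (11 parental and 12 resistant), labelled as biological replicates. Whether a resistant line is a pool or came from a single clone was not stated, and each line has only 1 resistant derivative, so the p-values measure the spread between cultures of that derivative and not between independent selections. Libraries are named below by the numbers their columns carry, 2 to 24.

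Of the 9 genes, 7 lie on chromosome 6 in the MHC region. In the GRCh37 annotation HLA-E is at chr6:30457286-30461971 on the plus strand, HLA-C at chr6:31236526-31239907 and HLA-B at chr6:31321649-31334844, both on the minus strand. Further along the chromosome follow TAP2 at chr6:32789610-32806516, PSMB8 at chr6:32808494-32812456 and TAP1 at chr6:32812986-32821593, all minus, and PSMB9 at chr6:32811913-32827628 on the plus strand. B2M is at chr15:45003556-45011049 and NLRC5 at chr16:57023397-57117443, both plus. The annotated span of PSMB9 runs over that of TAP1 and the end of PSMB8 on the other strand, and whether the counting used strand is not given in the sources used here, so reads of these neighbours may be shared.

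Upstream sequences are shown for HLA-B, HLA-C, B2M, TAP1 and PSMB9, because these genes moved together in some lines and apart in others. They were searched for the letters of known class I elements. Each is the 250 bases before the annotated start from RefSeq (build GRCh38.p14), written 5′ to 3′ on the gene's own strand. TAP1 is shown for the further upstream of its 2 listed starts. Capitals mark matches, on either strand, to 4 motifs: GAAANNGAAA, the core of interferon-stimulated response elements; GGGANNNNCC, an NF-kB type site; TGACG, the core of sites bound by CREB and ATF factors; and CCAAT, the site of NF-Y.
HLA-B, chr6:31357180-31357429, minus strand: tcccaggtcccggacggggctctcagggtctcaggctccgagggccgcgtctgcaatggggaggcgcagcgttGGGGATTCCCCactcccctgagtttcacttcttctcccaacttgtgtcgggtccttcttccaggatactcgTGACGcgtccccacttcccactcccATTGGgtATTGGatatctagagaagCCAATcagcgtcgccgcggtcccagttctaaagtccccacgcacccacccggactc
HLA-C, chr6:31272093-31272342, minus strand: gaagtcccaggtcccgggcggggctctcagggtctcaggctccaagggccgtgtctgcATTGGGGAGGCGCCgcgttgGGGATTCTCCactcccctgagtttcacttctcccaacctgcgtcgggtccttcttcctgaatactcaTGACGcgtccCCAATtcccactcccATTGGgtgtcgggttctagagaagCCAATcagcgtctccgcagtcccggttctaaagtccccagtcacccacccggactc
B2M, chr15:44711267-44711516, plus strand: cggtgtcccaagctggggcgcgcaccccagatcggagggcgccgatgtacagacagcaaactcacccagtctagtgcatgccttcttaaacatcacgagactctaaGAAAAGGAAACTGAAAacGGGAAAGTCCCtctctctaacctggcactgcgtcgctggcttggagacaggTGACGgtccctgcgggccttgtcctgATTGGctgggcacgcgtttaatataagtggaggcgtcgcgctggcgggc
TAP1, chr6:32853705-32853954, minus strand: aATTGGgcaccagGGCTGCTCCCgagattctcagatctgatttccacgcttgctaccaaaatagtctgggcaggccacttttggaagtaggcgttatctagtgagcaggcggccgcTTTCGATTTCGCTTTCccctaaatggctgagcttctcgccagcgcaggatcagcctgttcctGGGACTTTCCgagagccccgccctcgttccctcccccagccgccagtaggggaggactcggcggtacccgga
PSMB9, chr6:32853942-32854191, plus strand: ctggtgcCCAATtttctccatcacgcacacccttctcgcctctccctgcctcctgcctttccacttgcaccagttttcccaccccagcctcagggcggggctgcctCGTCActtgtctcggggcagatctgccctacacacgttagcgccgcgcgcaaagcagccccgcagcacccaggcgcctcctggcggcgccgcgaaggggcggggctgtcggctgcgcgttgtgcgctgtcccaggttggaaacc

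Of the 9 genes, 7 had an entry, and HLA-E and NLRC5 did not. HLA-B and HLA-C shared 89.0% of aligned positions over these windows, against 47.2% for HLA-B and B2M. Both heavy chain windows held TGACG, its first base 106 bases before the start of HLA-B and 105 before that of HLA-C, followed by 3 CCAAT matches over both strands. Further upstream each held 2 matches to GGGANNNNCC, which overlapped each other in HLA-B and of which 1 overlapped a CCAAT match in HLA-C. In B2M and TAP1 the interferon core matched at 2 overlapping positions, between 144 and 129 bases before the start of B2M and between 134 and 119 bases before that of TAP1. It matched once upstream of TAP2 and not in the windows of HLA-B, HLA-C, PSMB8 and PSMB9. The TAP1 and PSMB9 starts face away from each other with 487 bases between them. Among 35116 windows of all genes, 3.02% held GAAANNGAAA, 22.6% held GGGANNNNCC, 21.2% held TGACG and 32.0% held CCAAT. These matches describe letters only and are not evidence of binding, and the lack of a match is not evidence that an element is absent.

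The values are log2 expression values per gene that the authors had quantile-normalised over libraries, so each library has nearly the same distribution (library medians 6.01) and a shift common to most genes cannot be seen. No read counts or depths come with them. They are not scaled per length, and the values of HLA-B, HLA-C, TAP2, PSMB8 and PSMB9 are plain means of log2 exon values where the other 4 come from a robust model, so levels are compared between libraries and not between genes. HLA-B and HLA-C are near-identical paralogs and differ between people, and reads may have been split between them. A change is called here at an adjusted p under 0.05 (limma, adjusted over all 21658 genes) with a difference of at least 2-fold.

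KRT8 and KRT18, keratins of epithelial cells, were present in all 8 groups (lowest group means 8.77 and 8.97). PAX8, a marker of many ovarian carcinomas, was at 8.42 or above in the parental libraries of the other lines but at 2.10 ± 0.46 in parental OV-90 (SD, n = 2). The rest of the carcinoma list varied between parental lines. Group means ran from 1.03 in EFO-21 to 8.25 in OVSAHO for WT1. For MUC16 they ran from 1.15 in OV-90 to 6.86 in OVSAHO, and for KRT7 from 2.76 in EFO-21 to 11.40 in OVSAHO. EPCAM ran from 6.47 in Kuramochi to 12.30 in OV-90 and KRT19 from 5.63 in OVSAHO to 13.22 in OV-90. The leukocyte marker PTPRC did not exceed 4.65 in any library, although CSF1R reached 6.71, CD79A 7.39, CD14 6.94 and CD3D 6.22 in OV-90 and CD14 6.80 in Kuramochi and 6.69 in EFO-21. Some markers of other cell types were high in certain lines while others of the same list were not. Endothelial CDH5 and PECAM1 were at 9.11 ± 0.07 and 8.48 ± 0.05 in parental EFO-21 (SD, n = 3), but VWF at 3.65. PECAM1 was also at 6.35 in parental OV-90 and CDH5 at 7.62 in resistant Kuramochi. Fibroblast LUM was at 12.31 and 13.21 in parental OV-90, with COL1A2 at 1.43 and 6.70. Mean levels there were 7.69 for COL1A1, 5.97 for DCN and 2.25 for PDGFRB. The 2 parental OV-90 libraries resembled each other less (correlation over genes 0.952) than libraries within any other group (0.971 or above), and each OV-90 result below is given with that in view. Because these are bulk cultures, fewer expressing cells and less RNA per cell cannot be told apart.

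Before resistance, the 4 parental lines differed widely in class I genes, with EFO-21 high for most and OV-90 low for HLA-B and NLRC5. HLA-C spanned the largest range: 4.42, 4.82 and 5.22 in parental Kuramochi, 5.97 to 6.16 in OVSAHO, 6.59 and 7.17 in OV-90, and 8.90, 9.01 and 9.02 in EFO-21. No line overlapped another for this gene, and EFO-21 lay 17.88-fold above Kuramochi (4.16 ± 0.20 on the log2 scale, SE, adjusted p = 5.53e-08). HLA-B had another order, with OV-90 lowest at 4.43 and 5.50, then Kuramochi at 6.15 to 6.68, and EFO-21 and OVSAHO side by side at 7.15 ± 0.05 and 7.18 ± 0.08 (SD, n = 3). No difference was detected between these last 2 lines (EFO-21 minus OVSAHO -0.02, 95% interval -0.56 to 0.51, adjusted p = 0.937). HLA-E, which presents leader peptides of other class I molecules to natural killer receptors, was lowest in Kuramochi (4.92 ± 0.25) and between 5.71 and 6.54 in every parental library of the other lines. OV-90 and EFO-21 differed in it by no more than their spread (EFO-21 minus OV-90 0.28, 95% interval -0.15 to 0.72, adjusted p = 0.208).

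B2M was among the most abundant transcripts of every line, at or above the 97.8th percentile of genes on average in each group. Its parental levels were ordered OV-90 (11.61 and 11.85), OVSAHO (12.12 to 12.22), Kuramochi (12.49 to 12.57) and EFO-21 (13.54 to 13.55), with no overlap. TAP1 ran from 5.76 to 6.17 in Kuramochi through 6.63 ± 0.10 in OV-90 and 7.91 ± 0.11 in OVSAHO to 8.38 ± 0.06 in EFO-21, and each neighbouring pair differed at an adjusted p of 0.00391 or less. TAP2 varied less: parental means lay between 5.09 and 5.76, and no pair of lines reached 2-fold. The interval between EFO-21 and OV-90 ran from -0.21 to 0.52 (adjusted p = 0.424).

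The immunoproteasome subunits did not follow TAP1. PSMB9, one of the interferon-induced catalytic subunits, was highest in OVSAHO (6.06, 6.20 and 6.24), with Kuramochi at 4.27 to 4.75, EFO-21 at 3.77 to 4.13 and OV-90 at 3.596 and 4.08. OVSAHO lay 5.02-fold above OV-90 (adjusted p = 5.03e-06) and 4.49-fold above EFO-21 (adjusted p = 3.62e-06), while EFO-21 and OV-90 overlapped (adjusted p = 0.518). PSMB8, its partner in the same particle, differed at least 2-fold between no pair of parental lines, with means from 5.07 in Kuramochi to 6.07 in EFO-21. NLRC5 was low in all lines: 4.35 ± 0.06 in EFO-21, 2.93 ± 0.13 in Kuramochi, 2.51 ± 0.10 in OVSAHO, and 1.42 and 2.15 in OV-90, where it stood near the 10.1th percentile of all genes. Kuramochi and OVSAHO did not overlap in NLRC5, but their difference did not pass the test (Kuramochi minus OVSAHO 0.43, 95% interval -0.09 to 0.94, adjusted p = 0.133). That interval too carries the spread of OV-90 (SD 0.52, n = 2).

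Over the 6 pairs of parental lines, the called members numbered 5 between Kuramochi and EFO-21 (41.3% of all genes were called in that pair), 3 between Kuramochi and OVSAHO (37.6%), 4 between Kuramochi and OV-90 (47%), 4 between EFO-21 and OVSAHO (44.2%), 5 between EFO-21 and OV-90 (50.2%) and 3 between OVSAHO and OV-90 (48.1%). These counts of 3 to 5 among 9 genes are close to the shares of all genes. Every called member was higher in EFO-21 against Kuramochi and against OV-90.

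**Figure D1:**
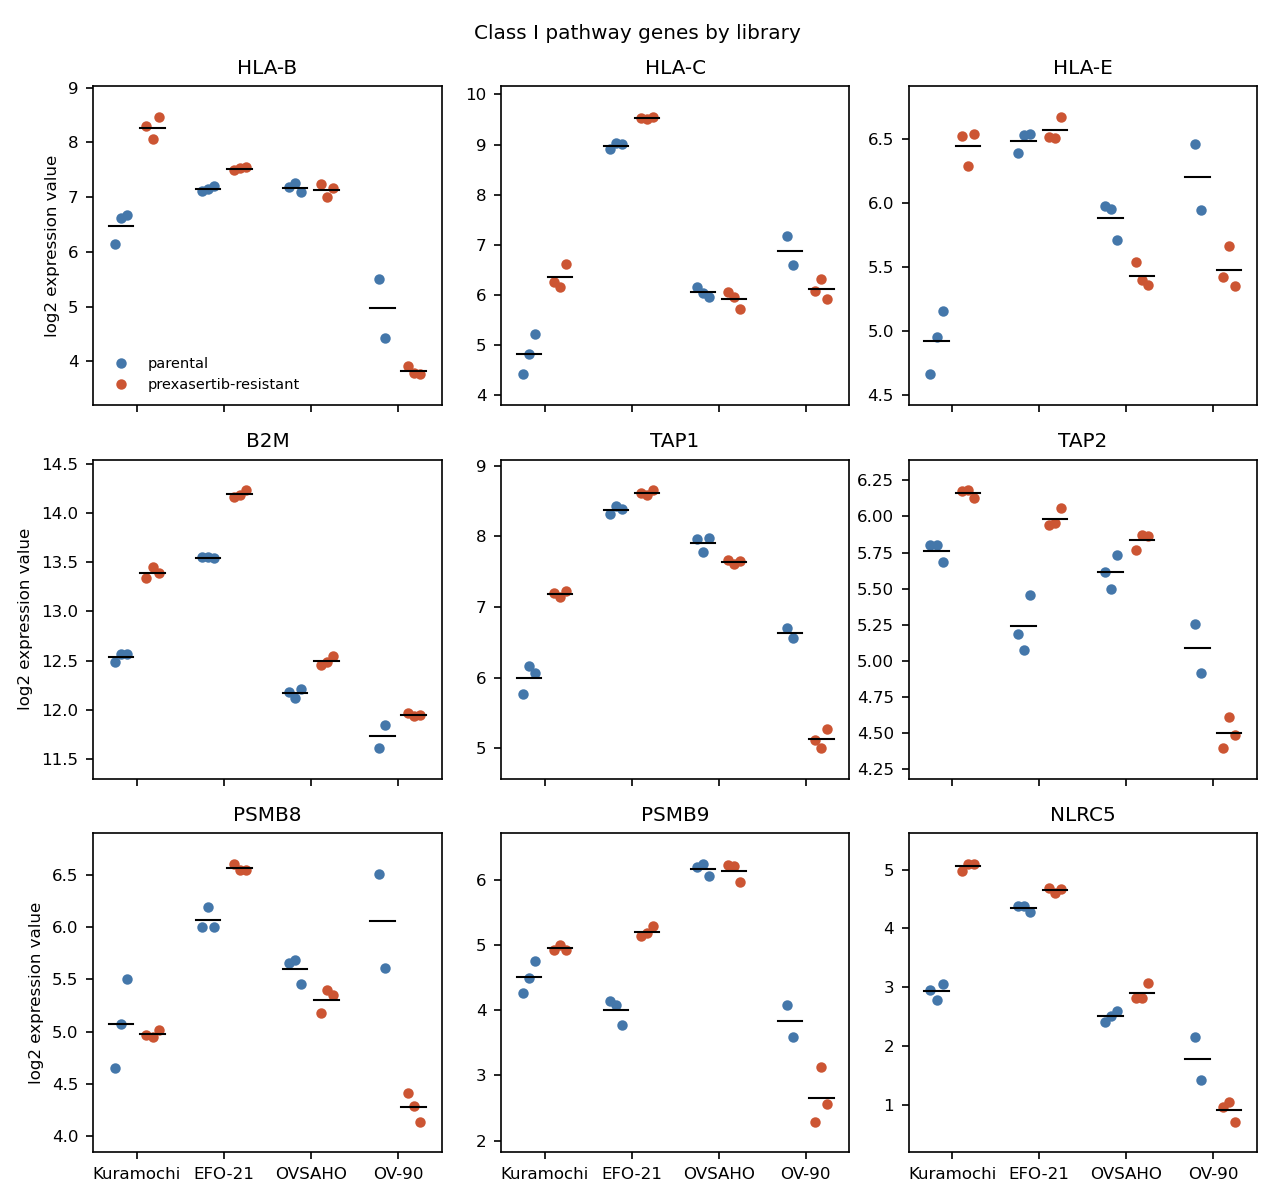
Each panel shows 1 gene, with its log2 expression value on the vertical axis and the 4 lines on the horizontal axis. Points are libraries (blue parental, red prexasertib-resistant) and black bars are group means. In Kuramochi the resistant mean lies above the parental one for 8 of the 9 genes, PSMB8 being the exception. In OV-90 it lies below for 8, B2M being the exception. Of all 21658 genes, 10589 had a higher resistant mean in Kuramochi and 10118 in OV-90.

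Resistant Kuramochi cells carried more RNA of all 3 heavy chains, of TAP1 and of NLRC5. These 5 of the 9 genes were called higher and none lower, where 11.8% of all genes were called higher and 10.6% lower. HLA-B stood at 6.15, 6.61 and 6.68 in the parental libraries and at 8.06, 8.30 and 8.47 in the resistant ones. The groups did not overlap, and the rise was 3.47-fold (1.80 ± 0.18 on the log2 scale, SE, adjusted p = 0.000425). HLA-C rose 2.89-fold, from 4.82 ± 0.40 to 6.35 ± 0.24 (SD, n = 3 each, adjusted p = 0.00302), and HLA-E 2.88-fold, from 4.92 ± 0.25 to 6.45 ± 0.14 (adjusted p = 0.000683). Set beside parental EFO-21, with no test, the resistant Kuramochi libraries were level in HLA-E (6.49 ± 0.08 in EFO-21), above in HLA-B (7.15 ± 0.05) and below in HLA-C (8.98 ± 0.06).

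TAP1 in Kuramochi was 5.76, 6.07 and 6.17 before and 7.14, 7.19 and 7.23 after, a 2.28-fold rise (adjusted p = 0.000594). TAP2, the other subunit of the transporter, was 1.32-fold higher (0.40 ± 0.10, adjusted p = 0.0196) and B2M 1.81-fold higher (0.85 ± 0.06, adjusted p = 0.000106). Both passed the test without reaching 2-fold, where 5111 of all 21658 genes were higher at an adjusted p under 0.05. The largest difference was in NLRC5, at 2.78, 2.96 and 3.05 in the parental and 4.97, 5.09 and 5.09 in the resistant libraries, a 4.35-fold rise (2.12 ± 0.17, adjusted p = 0.000202). The immunoproteasome subunits did not pass the test: PSMB8 differed by -0.10 (95% interval -0.67 to 0.47, adjusted p = 0.762), with the resistant libraries (4.95 to 5.01) inside the wide parental range (4.65 to 5.50). For PSMB9 the difference was 0.44 (95% interval 0.01 to 0.88, adjusted p = 0.0852). The 5 calls held with each of the 6 libraries left out in turn.

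In the same Kuramochi comparison 5 of 8 ovarian carcinoma markers were called lower (EPCAM, KRT18, KRT19, MUC16 and WT1), with a median difference over the 8 of -1.69. Among the 8 measured leukocyte markers, ITGAM was called higher and the median difference was -0.09, with PTPRC at 2.98 ± 0.77 in parental and 1.93 ± 0.22 in resistant cells. Of 3 endothelial markers CDH5 was called higher (4.75 ± 0.30 to 7.62 ± 0.12) and VWF lower (3.89 ± 0.21 to 1.89 ± 0.11), and of 5 fibroblast markers LUM and PDGFRB were called higher and COL1A1 and DCN lower. The summed level, the log2 of the sum of linear values over a list, was 12.96 to 13.22 in parental and 12.00 to 12.07 in resistant libraries for the carcinoma markers, and 6.01 to 6.84 against 6.54 to 7.10 for the leukocyte markers. It was 5.16 to 5.65 against 7.52 to 7.74 for the endothelial markers and 7.004 to 7.43 against 6.63 to 6.90 for the fibroblast markers. CD3D and CD3E were listed at 0 in all 3 resistant libraries. The part of these differences in the class I values was not tested.

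In EFO-21, where class I levels were already high, resistant cells had higher values for all 9 genes, as for 10993 of all 21658 genes. The differences were smaller than in Kuramochi for the heavy chains, B2M, TAP1 and NLRC5 and larger for TAP2, PSMB8 and PSMB9, with the contrast between the 2 lines not tested by itself. PSMB9 was the single call, where 7.11% of all genes were called higher and 7.15% lower. It stood at 3.77, 4.08 and 4.13 in parental and 5.13, 5.17 and 5.29 in resistant libraries, a 2.30-fold rise (1.20 ± 0.15, adjusted p = 0.00141). HLA-B, HLA-C, B2M, TAP1, TAP2 and PSMB8 were higher by 1.18-fold to 1.68-fold with adjusted p between 0.000109 and 0.00462. B2M, for example, moved from 13.54 to 13.55 in the parental libraries to 14.16, 14.18 and 14.23 (0.64 ± 0.04). At an adjusted p under 0.05 without the requirement of 2-fold, 5405 of all 21658 genes were higher and 5073 lower. The spread within EFO-21 groups was small, so differences under 2-fold passed the test. HLA-E (0.08, 95% interval -0.11 to 0.27, adjusted p = 0.431) and NLRC5 (0.30, 95% interval 0.0033 to 0.60, adjusted p = 0.0872) did not. In the same comparison 2 of 8 leukocyte markers were called lower (CD14 6.33 ± 0.32 to 4.64 ± 0.41, CD3D 3.62 ± 0.72 to 1.09 ± 0.15), and their summed level went from a range of 6.94 to 7.25 to one of 5.69 to 5.99. None of the 8 carcinoma markers was called, although 6 were lower at an adjusted p under 0.05 without the requirement of 2-fold (summed level 13.35 to 13.42 in parental and 12.82 to 12.87 in resistant libraries). The fibroblast marker COL1A2 was called higher (summed level of the list 6.19 to 6.43 against 6.73 to 6.85) and no endothelial marker was called. Their part in the class I values was not tested.

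Resistant OVSAHO cells differed little from parental ones in these genes. None of the 9 was called, against 3.93% of all genes called higher and 3.83% lower. Without the requirement of 2-fold, limma put 1 gene higher and 2 lower at an adjusted p under 0.05: B2M at 12.12 to 12.22 against 12.46 to 12.55 (0.33 ± 0.04, adjusted p = 0.00326), HLA-E at 5.71 to 5.98 against 5.36 to 5.54 (-0.45 ± 0.11, adjusted p = 0.0274) and TAP1 at 7.78 to 7.98 against 7.61 to 7.66 (-0.27 ± 0.06, adjusted p = 0.0214). At that threshold 3696 of all 21658 genes were higher and 3507 lower. HLA-B and PSMB9 differed by -0.04 (95% interval -0.24 to 0.16) and -0.03 (95% interval -0.28 to 0.22), intervals that stay well within 2-fold in either direction. In this line too carcinoma markers were called lower (4 of 8, EPCAM, KRT7, KRT19 and MUC16), as were 2 of 8 leukocyte markers, PTPRC and CD3E. Of 5 fibroblast markers DCN and LUM were called higher and COL1A1 and COL1A2 lower, and of 3 endothelial markers CDH5 was called higher. The summed levels of parental and resistant libraries were 12.47 to 12.53 against 11.42 to 11.52 for carcinoma, 5.62 to 6.79 against 4.84 to 5.51 for leukocyte, 2.48 to 3.16 against 3.43 to 3.5956 for endothelial and 5.98 to 6.04 against 7.45 to 7.76 for fibroblast markers. Their part in the class I values was not tested.

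Resistant OV-90 cells differed the other way, with 8 of the 9 genes lower, where 10118 of all 21658 genes were higher. TAP1 and PSMB8 were called lower and none higher, where 6.56% of all genes were called lower and 9.5% higher. TAP1 was 6.57 and 6.70 in the 2 parental libraries and 5.004, 5.12 and 5.28 in the resistant ones, and fell 2.83-fold (-1.501 ± 0.152, adjusted p = 0.00983). PSMB8 was 5.61 and 6.51 against 4.14, 4.29 and 4.41, and fell 3.42-fold (-1.77 ± 0.32, adjusted p = 0.0225). Both calls held without either parental library (TAP1 -1.43 and -1.57, PSMB8 -1.32 and -2.22), but with any resistant library left out the adjusted p was between 0.0546 and 0.0664 for TAP1 and between 0.0792 and 0.0944 for PSMB8.

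The other OV-90 differences rested more on the parental pair. HLA-B was 5.50 in library 2 and 4.43 in library 3, against 3.76, 3.78 and 3.92 in the resistant libraries. The groups did not overlap, but the parental libraries were over 2-fold apart and the difference of -1.14 ± 0.36 did not pass (adjusted p = 0.0641). With library 3 left out HLA-B differed by -1.68 (adjusted p = 0.00633), and with library 2 left out by -0.61 (adjusted p = 0.0852). HLA-C (-0.77, adjusted p = 0.0566), HLA-E (-0.73, adjusted p = 0.0567), TAP2 (-0.59, adjusted p = 0.0742), NLRC5 (-0.87, adjusted p = 0.0641) and PSMB9 (-1.17, adjusted p = 0.0528) did not pass the test either. HLA-B and PSMB9 were past 2-fold and missed on the adjusted p, while the other 4 were also under 2-fold (1.504-fold to 1.83-fold). NLRC5 in the resistant OV-90 libraries (0.72, 0.97 and 1.04) was below the 10th percentile of all genes, where a log2 difference has little meaning. B2M was the exception, at 11.61 and 11.85 in the parental and 11.94, 11.95 and 11.97 in the resistant libraries (0.22, 95% interval -0.01 to 0.45, adjusted p = 0.104). In OV-90 the endothelial marker PECAM1 was called lower, at 6.34 and 6.36 in the parental and 3.31 to 3.58 in the resistant libraries, with the summed level of the 3 endothelial markers at 6.41 to 6.46 against 3.94 to 4.03. No marker of the other 3 lists was called, with summed levels of 14.29 to 14.52 against 13.91 to 13.99 for carcinoma, 8.34 to 9.08 against 8.63 to 8.73 for leukocyte and 12.42 to 13.25 against 12.09 to 12.22 for fibroblast markers. Their part in the class I values was not tested.

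**Figure D2:**
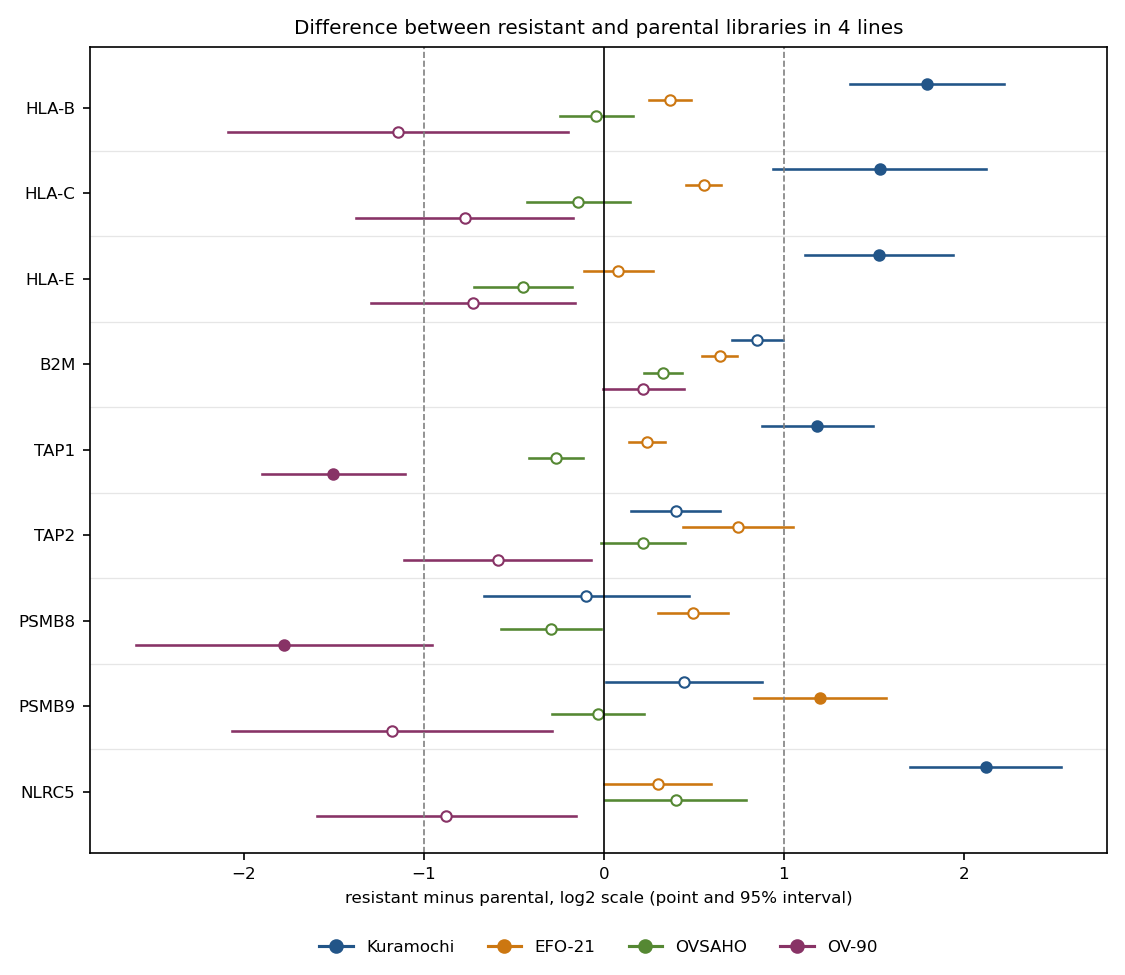
Resistant minus parental difference on the log2 scale (horizontal axis) for each of the 9 genes (rows) and each line (colours), with 95% intervals. Filled points were called, and dashed lines mark 2-fold. The Kuramochi points lie to the right for 8 of the 9 genes, the OVSAHO points lie within 0.45 of 0, and the OV-90 points lie to the left except for B2M. Of all 21658 genes, 10589 had a positive difference in Kuramochi and 10118 in OV-90.

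All 9 genes differed among the 4 lines in how they changed with resistance (limma F-test over the 4 differences, adjusted p from 8.48e-11 for TAP1 to 1.63e-05 for PSMB8), but 75.1% of all genes did so too. TAP1 illustrates the pattern, with a rise of 1.19 in Kuramochi and -1.501 on the log2 scale in OV-90. B2M was the only member with a positive difference in every line, passing the test in Kuramochi, EFO-21 and OVSAHO (0.85, 0.64 and 0.33). The F-test takes 1 spread per gene over all 23 libraries, so the spread of the 2 parental OV-90 libraries is averaged with that of the other groups. In such a fit the adjusted p of the OV-90 difference of HLA-B was 0.000207, against 0.0641 with the line fitted alone (limma).

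The balance of immunoproteasome and standard subunits was read as the difference of log2 values within each library, between PSMB8, PSMB9 and PSMB10 and the standard subunits PSMB5, PSMB6 and PSMB7 whose places they take. The level of such a difference depends on how each gene was summarised, so only its shift between groups of a line is described, with no test. In EFO-21, PSMB8 minus PSMB5 went from -1.22 ± 0.09 to 0.09 ± 0.06 and PSMB9 minus PSMB6 from -7.39 ± 0.23 to -5.89 ± 0.08 (SD, n = 3). PSMB5 contributed to the first shift, being 0.82 lower on the log2 scale in resistant EFO-21 (adjusted p = 0.000734). PSMB10 minus PSMB7 shifted by 0.28 in EFO-21. In OV-90 the 3 differences moved the other way, by -1.55, -0.98 and -1.01, with only 2 parental libraries. Kuramochi shifted upwards for PSMB9 minus PSMB6 (0.64) and PSMB10 minus PSMB7 (0.85), and by 0.24 with overlapping groups for PSMB8 minus PSMB5. OVSAHO shifted by 0.26, 0.18 and -0.37. The first of these came with lower means of both genes in resistant OVSAHO, 5.60 to 5.31 for PSMB8 and 7.65 to 7.09 for PSMB5.

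**Figure D3:**
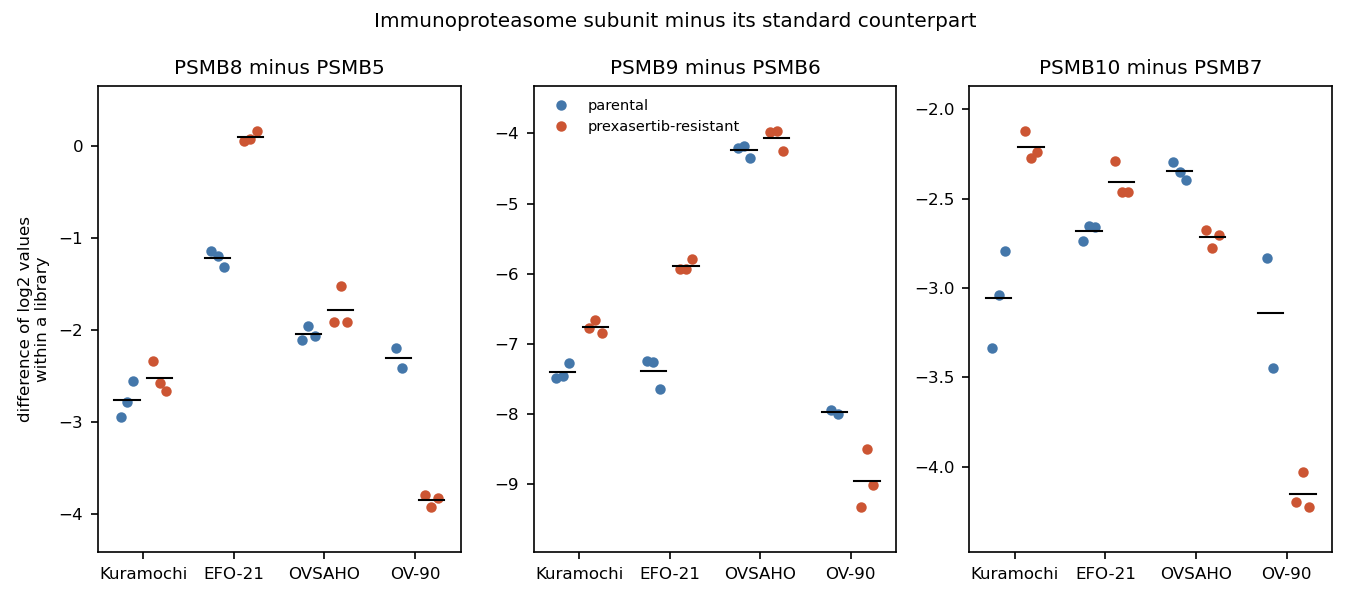
Difference of log2 values within each library (vertical axis) between an immunoproteasome subunit and its standard counterpart, by line. Points are libraries (blue parental, red prexasertib-resistant) and bars are group means. The resistant means lie above the parental ones in EFO-21 in all 3 panels and below them in OV-90.

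Across the rest of the pathway, 71 further genes were followed in 5 lists. In Kuramochi 6 were called higher (8.45%, against 11.8% of all genes) and 5 lower (7.04% against 10.6%). In EFO-21 2 were called higher (2.82% against 7.11%) and 5 lower (7.04% against 7.15%), in OVSAHO 1 higher (1.41% against 3.93%) and 0 lower (against 3.83%), and in OV-90 4 higher (5.63% against 9.5%) and 3 lower (4.23% against 6.56%). In no line and direction was the share above that of all genes. With any 1 of the 3 resistant OV-90 libraries left out, none of the 71 was called in OV-90, and each OV-90 call named below is subject to that. The median difference of the 71 lay between -0.09 and 0.02 in the 4 lines, against 1.19, 0.50, -0.04 and -0.87 for the 9 genes (Kuramochi, EFO-21, OVSAHO, OV-90) and between -0.06 and 0.01 for all genes.

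The other class I heavy chains had medians of 1.20 in Kuramochi, 0.67 in EFO-21 and -0.44 in OV-90, on the same side of 0 as the 9 genes, but 0.46 in OVSAHO against -0.04 for the 9. In Kuramochi 4 of these 5 were called higher. HLA-F, a heavy chain seen mainly on activated lymphocytes, rose 6.76-fold (from 1.24, 1.28 and 2.33 to 4.25, 4.32 and 4.55, adjusted p = 0.00106), HLA-G 2.82-fold (adjusted p = 0.0131) and HFE, the class I-like regulator of iron uptake, 2.30-fold (adjusted p = 0.0016). In 2 of the 3 parental Kuramochi libraries HLA-F lay below the 10th percentile of all genes (1.70 to 1.87 over libraries), so its fold is uncertain. In EFO-21 HLA-F rose 3.35-fold, from 4.59 ± 0.06 to 6.34 ± 0.10 (adjusted p = 8.7e-05), and MR1, which presents vitamin B metabolites to T cells, 2.15-fold. In OV-90 none of the 5 was called. HLA-F was 2.32 and 2.55 there in the parental libraries and 1.63, 1.60 and 1.12 in the resistant ones, all 3 of which lay below the 10th percentile, so its difference is not given as a size. Heavy chain genes and TAP1 were among those the study itself picked from these libraries, so their direction is not independent evidence.

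Of 10 genes for peptide loading and trimming, none was called in Kuramochi, EFO-21 or OVSAHO. TAPBP, the tapasin that bridges TAP and the heavy chain, was higher by 0.49 in both Kuramochi (adjusted p = 0.00634) and EFO-21 (adjusted p = 0.00654), with -0.09 in OVSAHO and 0.00 in OV-90. The trimming peptidases differed between lines: ERAP1 was 0.41 higher in resistant EFO-21 (adjusted p = 0.00174) and 0.69 higher in OV-90 (adjusted p = 0.0478), and ERAP2 was 0.63 higher in both EFO-21 (adjusted p = 8.23e-05) and OVSAHO (adjusted p = 0.00702). OV-90 had 1 call each way, the tapasin-like editor TAPBPL (fell 2.30-fold, adjusted p = 0.0142) and the chaperone CANX (rose 3.00-fold, adjusted p = 0.027), the latter from 2 parental libraries that were themselves spread (SD 0.74).

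Among 22 proteasome genes 2 were called lower in OV-90 (9.09%, against 6.56% of all genes): PSMB10, the remaining immunoproteasome subunit (8.15 and 8.90 against 7.21, 7.31 and 7.52, a fall of 2.27-fold, adjusted p = 0.0289), and PSME1, a subunit of an interferon-induced proteasome activator (2.08-fold, adjusted p = 0.0171). Both calls were also lost without parental library 2. In Kuramochi PSMB10 was 0.70 higher (adjusted p = 0.0213), in EFO-21 0.19 higher (adjusted p = 0.00464) and in OVSAHO 0.36 lower (-0.36, adjusted p = 0.00343). The standard subunits showed no call in any line. PSMB5 was at -0.55 in OVSAHO (adjusted p = 0.0121), PSMB6 between -0.30 and -0.19 in all 4 lines, and PSMB7 between -0.17 and 0.01. TPP2, a cytosolic peptidase that cuts proteasome products further, fell 4.36-fold in Kuramochi (adjusted p = 5.35e-05) and was the single proteasome-list call there.

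The interferon receptors and transcription factors (24 genes) gave no common direction. IRF1 was called in no line, with differences between -0.15 and 0.22. RFX5, a subunit of the factor that binds class I and class II promoters with NLRC5 or CIITA, was 0.34 higher in EFO-21 (adjusted p = 0.005) and 0.01 different in Kuramochi. In OV-90 RFX5 stood at 5.55 and 5.73 in the parental and 6.04 to 6.15 in the resistant libraries. In OVSAHO its means were 7.60 and 7.71. In Kuramochi 2 of the 24 were called higher and 2 lower (8.33% each way, against 11.8% and 10.6% of all genes). JAK2, a kinase of the interferon gamma receptor, rose 3.05-fold there (4.63 ± 0.14 to 6.24 ± 0.17, adjusted p = 0.000355). The NF-kB subunit RELB and the RFX subunit RFXAP fell 2.24-fold and 2.18-fold. In EFO-21, by contrast, 4 were called lower and 0 higher (16.7% and 0%, against 7.15% and 7.11% of all genes). IRF8 went from 6.08 ± 0.15 to 1.54 ± 0.29, at the bottom of the scale. NFKB1 fell 2.43-fold, the receptor chain IFNGR1 2.22-fold and JAK1 2.03-fold, the call of JAK1 being lost without library 10. NFYA, a CCAAT-binding subunit, rose 2.16-fold in OV-90 (adjusted p = 0.0107), a call also lost without parental library 2.

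Among 10 genes of silencing and turnover, the Polycomb subunits EED and EZH2 fell in Kuramochi (2.14-fold, adjusted p = 0.000471, and 2.01-fold, adjusted p = 0.000221), the call of EZH2 being lost without library 5, 6, 16 or 17. In OV-90 the Polycomb subunit SUZ12 rose 2.24-fold, at an adjusted p of 0.0499, and was also not called without parental library 2. B3GNT5, a glycosyltransferase whose glycolipid products can mask class I molecules, fell in EFO-21 from 4.97 ± 0.20 to 0.74 ± 0.19, at the bottom of the scale, and rose 3.30-fold in OVSAHO (adjusted p = 0.0193) and 2.13-fold in OV-90 (adjusted p = 0.019). Its OVSAHO rise was not called when library 9, 19, 20 or 21 was left out.

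**Figure D4:**
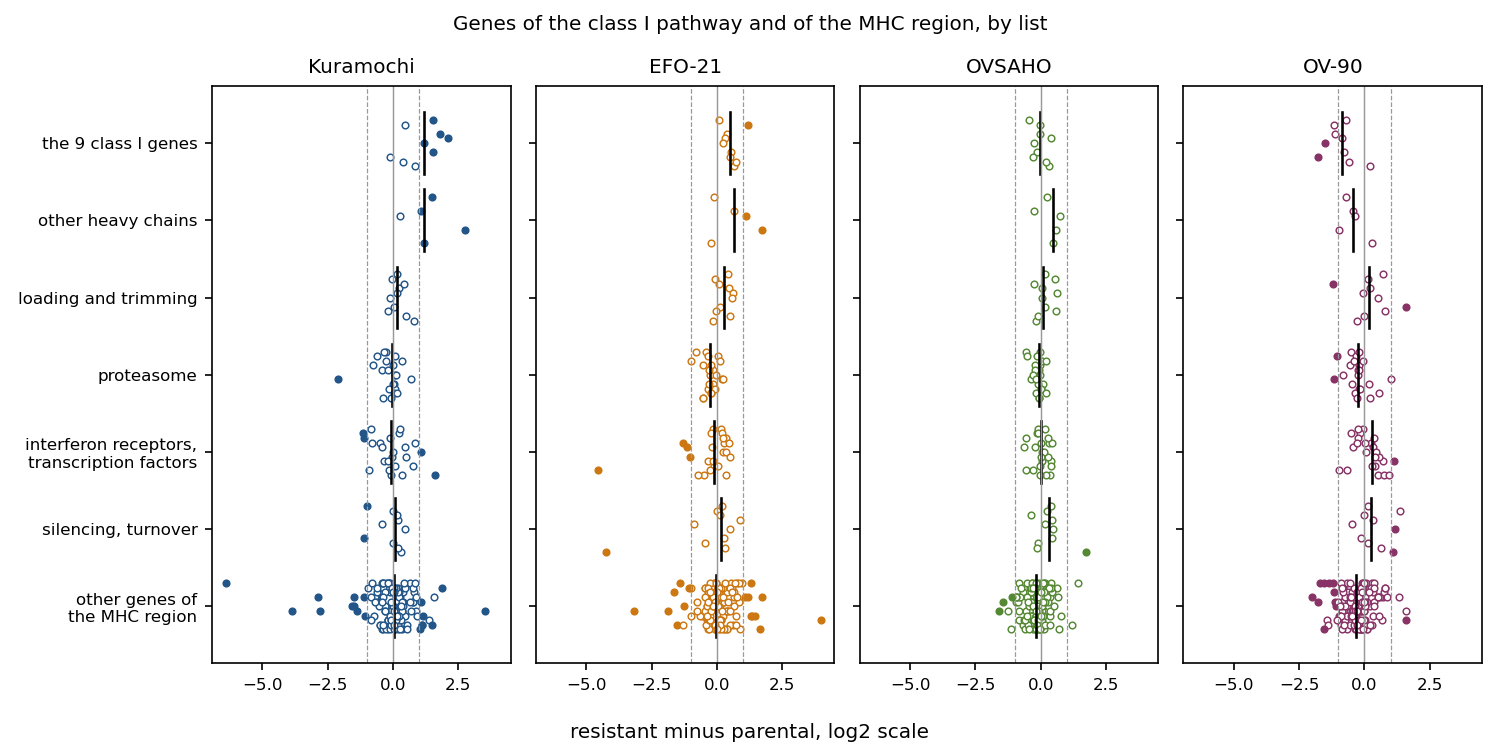
Resistant minus parental difference on the log2 scale (horizontal axis) for the 9 class I genes, the 5 pathway lists and 137 other genes of the MHC region (rows), 1 panel per line. Points are genes, filled where called, black bars are list medians and dashed lines mark 2-fold. In Kuramochi the 9 genes and the other heavy chains have medians of 1.19 and 1.20, and the other lists lie around 0.

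Genes around the members in the MHC region were followed for position. The 137 other genes measured between GABBR1 and KIFC1 had median differences of 0.03 in Kuramochi, -0.02 in EFO-21, -0.16 in OVSAHO and -0.31 in OV-90, and 8, 9, 0 and 1 of them were called higher and 10, 7, 3 and 10 lower. The shares called higher were 5.84%, 6.57%, 0% and 0.73% against 11.8%, 7.11%, 3.93% and 9.5% of all genes, and those called lower 7.3%, 5.11%, 2.19% and 7.3% against 10.6%, 7.15%, 3.83% and 6.56%. In OV-90 the region and the 9 genes thus both lay below 0, by unequal amounts (-0.31 against -0.87), where the median of all genes was -0.06. PSMB8-AS1, the antisense RNA beside PSMB8, was looked at after its values were seen: it fell 3.27-fold in OV-90 (adjusted p = 0.0176) alongside PSMB8, and as for PSMB8 the call was lost with any resistant library left out. Reads of the pair cannot be told apart where strand was not used.

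Over the 23 libraries the members fell into looser and tighter pairs. B2M and NLRC5 followed each other most closely (Pearson r = 0.899), then HLA-B and TAP2 (0.888), HLA-C and HLA-E (0.816) and TAP1 and PSMB8 (0.801). PSMB9 and HLA-C had no relation (-0.054). NLRC5 ran with HLA-B (0.880) more than with PSMB9 (0.382). The libraries come from 4 lines in 8 groups, so these values describe how groups line up and carry no test. The mean of the 9 standardised values was lowest in resistant OV-90 (-1.52 to -1.33), from -0.75 to -0.22 in parental Kuramochi and OV-90, near 0 in OVSAHO (0.03 to 0.12), between 0.45 and 0.59 in both resistant Kuramochi and parental EFO-21, and highest in resistant EFO-21 (1.09 to 1.18).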

How the data were processed

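RNA of 23 cultures was sequenced from TruSeq Stranded mRNA libraries. Per the study's methods, the authors aligned reads to GRCh37 (hg19), filtered exons, combined exon and junction reads per gene by a robust linear model and quantile-normalised the libraries. The deposited values are log2 expression values per NCBI gene, with no counts, so depth and the precision it sets are unknown. The deposited column of exon numbers per gene is of another kind and was used as a description only. Of 21658 genes, 16448 came from the robust model and 5210 from a mean of log2 exon values.

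Groups were taken from the labels. Each line was fitted alone with limma 3.58.1 (R 4.3.3, mean-variance trend, two-sided, Benjamini-Hochberg over all genes), and the 11 parental libraries and all 23 libraries were fitted for the other comparisons. No low-value filter or pseudocount was used. The fits were tested on simulated data. The members were compared in every comparison, with IRF1, RFX5, TAPBP, ERAP1, ERAP2, PSMB10, PSMB5, PSMB6 and PSMB7 always named, the 3 largest called rises and falls of listed genes in each line, and 10 genes of like pattern. IFNGR1, JAK1, EZH2, EED, HFE and the neighbours LTB, TNF and PSMB8-AS1 were added after their values were seen. Values of 2 listed genes are not reported here. The members and lists were chosen with earlier results of these data known. Gene positions are from GENCODE 44 lifted to GRCh37 and sequences from RefSeq on GRCh38.p14. Alternatives were the fit over all libraries, no trend, a low-value filter, equal library medians, other fold thresholds and each library left out.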

Additional observations from a re-analysis of the deposited data

Results flagged for a closer look

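The difference between resistant and parental cells differed among the 4 lines for all 9 genes, by the limma F-test over the 4 differences. The 23 libraries share 1 spread per gene in this test, that of parental OV-90 included, and 75.1% of all genes passed it. The adjusted p was 4.77e-07 for HLA-B (1.80 in Kuramochi to -1.14 in OV-90, on the log2 scale), 2.86e-06 for HLA-C (1.53 to -0.77), 1.01e-07 for HLA-E (1.53 to -0.73) and 2.68e-06 for B2M (0.85 to 0.22). It was 8.48e-11 for TAP1 (1.19 to -1.501) and 1.09e-05 for TAP2, whose highest difference was in EFO-21 (0.75 to -0.59). For NLRC5 it was 1.7e-07 (2.12 to -0.87), and for the immunoproteasome subunits PSMB8 and PSMB9, also highest in EFO-21, 1.63e-05 (0.50 to -1.77) and 6.3e-06 (1.201 to -1.174). In each case the lowest difference was in OV-90.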

How the results depend on the processing

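Of 347 recomputed log2 differences of the 9 genes, 330 kept direction and side of the threshold, 6 lost the call, 7 gained it and 4 reversed. The reversals were all of values near 0: with 1 library left out, PSMB8 in Kuramochi ranged from -0.310 to 0.115 (above 0 without library 6), HLA-B in OVSAHO from -0.0970 to 0.0303 (above 0 without 20) and PSMB9 in OVSAHO from -0.0843 to 0.0557 (above 0 without 8 or 21). In OV-90 the 2 members called lower became 4 with all 23 libraries in 1 fit (HLA-B adjusted p = 0.000207, PSMB9 0.000152) and 4 with low genes left out (0.0388 and 0.0352), a filter that removes NLRC5, and ranged from 0 to 5 with 1 library left out: 0 without any resistant library and 5 without parental library 3, which adds HLA-B, HLA-C and NLRC5. The cause was not tested. A threshold of 1.5-fold gave 3 members higher in EFO-21, and no fold threshold gave 7 there and 1 higher and 2 lower in OVSAHO. Without a fold threshold 5405 of all 21658 genes were higher in EFO-21, and 3696 were higher and 3507 lower in OVSAHO. Between parental lines, 1.5-fold gave 5 members for Kuramochi and OVSAHO, 9 for Kuramochi and OV-90 and 5 for OVSAHO and OV-90, and no fold threshold gave 9 for Kuramochi and EFO-21, 6, 9 and 7 for the same 3 pairs and 7 for EFO-21 and OVSAHO. The shares of all genes at 1.5-fold, at these parental settings and at the other OV-90 settings are not given. Those counts are therefore not read as results about the 9 genes. The Kuramochi and EFO-21 counts were 5 and 1 with each library left out. Over the other settings they ranged from 4 to 7 and from 1 to 7. The filter on low genes takes NLRC5, the largest Kuramochi rise, out of these counts too.

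Among the 71 other pathway genes, 1.5-fold gave 10 higher and 9 lower in Kuramochi, 5 and 9 in EFO-21, 4 and 1 in OVSAHO and 9 and 6 in OV-90, and no fold threshold 16 and 13, 19 and 27, 17 and 14, and 13 and 16. Of all 21658 genes, no fold threshold gave 5111 and 5047, 5405 and 5073, 3696 and 3507, and 3917 and 3874 in the same order. With low genes left out EFO-21 had 1 higher and 3 lower and OVSAHO 0 higher, fewer because low genes are not tested. With 1 library left out the OVSAHO count ranged from 0 to 1 higher, and those of OV-90 from 0 to 9 higher and 0 to 5 lower.

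No paired analysis was possible because the columns of the table carry no replicate numbers that tie them to the numbered replicates of the labels. The depth of the libraries is unknown, so no limit from counting error can be given. With 2 parental libraries the OV-90 values are the least certain.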

Other observations

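Cytokine genes that lie in the MHC region between HLA-B and TAP2 were looked at after their values were seen. LTB, a lymphotoxin subunit and NF-kB target, fell in Kuramochi from 7.33 ± 0.24 to 0.92 ± 0.09 (SD, n = 3, adjusted p = 8.36e-06 by limma), at the bottom of the scale, fell 2.65-fold in EFO-21 (adjusted p = 0.00311) and 2.94-fold in OV-90 (adjusted p = 0.0192, not called with any resistant library left out), and differed by -0.16 in OVSAHO (adjusted p = 0.18). TNF fell in Kuramochi from 4.66 ± 0.21 to 0.77 ± 0.17 and in EFO-21 from 2.48 ± 0.17 to 0.62 ± 0.29. In Kuramochi LTB and TNF were lower where HLA-B was 3.47-fold higher. They were picked from the 137 neighbours, of which 8 were called higher and 10 lower in that line.

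The genes outside the 9 whose values most resembled the mean of the 9 standardised members over the 23 libraries were CKLF-CMTM1 (Pearson r = 0.972), CKLF (0.960), PDCD4-AS1 (0.953), CYB5D2 (0.952), RAB11B (0.9498), ARSD (0.949), XAB2 (0.949), APH1B (0.947), a gene with no symbol (0.946) and TK2 (0.945). They were the highest of 20053 genes with a range of group means of at least 1 on the log2 scale, and with 8 groups such values describe a shared order of groups only.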
